A study of Mus musculus with 5 samples.

Results

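The messenger RNAs (mRNAs) of the hnRNP and SR splicing factors were examined in Surface-seq libraries of EL4, an established mouse lymphoma cell line that grows in suspension. The members were the protein-coding genes whose symbol begins with Hnrnp, or is Srsf and a digit, together with Tra2a, Tra2b, Ptbp1, Pcbp1 and Pcbp2. This rule uses names only and gave 36 of the 55385 genes listed, namely 20 hnRNP genes, 11 SR genes, 2 Tra2 genes and 3 genes for poly(C) or polypyrimidine tract binding proteins. Surface-seq reads RNA from nanoparticles coated with plasma membrane that was purified from the cells. In variation A (libraries A1, A2 and A3) the RNA was extracted from the particles, its ends were repaired and adaptors were then ligated, so RNA on either side of the membrane can enter the library. In variation B (libraries B1 and B2) the 3′ adaptor was ligated directly on the intact particles, which favours RNA that faces outwards. The labels also carry a protocol for labelling EL4 cells with EU for imaging, and whether the sequenced cells were labelled is not stated in the sources used here. All 5 libraries came from EL4 cells, none is labelled as edited or as a treated group, and no library of whole-cell RNA was analysed here. Whether a level reflects the amount in the cell, at the membrane or at its outer face was therefore not tested. The variations also differ in end repair and in RNA isolation (phenol-chloroform for A, silane beads for B). For variation B the paper also describes increased RNA input and PCR cycles, and size selection of the library. Side of the membrane and library protocol therefore cannot be told apart. The labels do not say that the libraries came from separate cultures, so the p-values measure only the spread between these libraries, which may be technical.

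Heterogeneous nuclear ribonucleoproteins (hnRNPs) and serine/arginine-rich (SR) proteins bind pre-mRNA as it is made and steer the choice of splice sites. SR proteins recognise exonic enhancers with their RNA recognition motifs and recruit the spliceosome through domains rich in arginine and serine, while many hnRNPs bind silencers and act against them. Many of these genes also limit their own expression through exons or retained introns that lead the mRNA to decay, so the annotated exons of a gene can include non-coding forms.

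The libraries differed in depth and composition. Library totals lay between 1187117 and 4502174 counts for variation A, and were 21862003 (B1) and 22980172 (B2) for variation B, and the members together had between 1499 counts (A3) and 111845 counts (B2). A1 stood apart within variation A, with 39.4% of counts on protein-coding genes against 22.6% in A2 and 22.0% in A3, and 0.847% on small nuclear RNA genes against 12.1% and 13.1%. Genes listed for T cells were present, with 13 of the 14 listed passing the filter on low counts. Their summed level, in the scaled units given next, lay between 1074 and 1148 for variation A, against 1395 and 1473 for variation B. Of the 6 B-cell genes only Ighm passed, and the list summed to between 48.4 and 50.8 against 122 to 133, with 1 of its genes at 0 in every library. Of the 6 myeloid genes only Lyz2 passed, and the list summed to between 0 and 4.65 against 2.41 to 3.14, with 2 at 0 in every library. Lyz2 itself had 0 counts in A1, A2 and A3, then 73 (B1) and 133 (B2). Both Ighm and Lyz2 were called higher in variation B in the main comparison below. No erythroid gene passed. The part of these levels in the results below was not tested. Levels are CPM after division by TMM factors (scaled CPM: reads of a gene relative to the scaled library total), which allow for such differences in composition. Of the 36 members, 35 passed the filter. Their mRNAs had 2 to 1010 counts per library of variation A, and 170 to 11934 per library of variation B. The other member, Srsf12, had 0 counts in A1, A2, A3 and B1 and 1 count in B2. It was not detectable at this depth, since 3 counts would be a scaled CPM of 0.0729 in B1 and 4.43 in A3.

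The coding sequences of the members that differed between the variations are shown first, because their base composition varied and is set against the fold changes below. Each line gives 120 coding bases, 5′ to 3′ on the coding strand, taken within 1 exon as the first stretch whose share of G and C is nearest to that of the whole coding sequence. Capitals mark runs of 6 or more G or C bases. The sequences are from the GENCODE M21 transcripts on GRCm38.

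Hnrnpa0 (lower in variation B, chr13:58128060-58128179, minus strand, exon 1 of 1): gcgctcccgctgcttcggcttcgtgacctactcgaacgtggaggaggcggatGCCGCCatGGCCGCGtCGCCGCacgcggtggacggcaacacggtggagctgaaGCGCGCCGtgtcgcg
Srsf2 (lower in variation B, chr11:116852806-116852925, minus strand, exon 1 of 3): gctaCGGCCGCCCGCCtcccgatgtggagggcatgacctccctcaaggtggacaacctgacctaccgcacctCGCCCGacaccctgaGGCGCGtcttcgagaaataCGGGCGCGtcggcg
Pcbp1 (lower in variation B, chr6:86525780-86525899, minus strand, exon 1 of 1): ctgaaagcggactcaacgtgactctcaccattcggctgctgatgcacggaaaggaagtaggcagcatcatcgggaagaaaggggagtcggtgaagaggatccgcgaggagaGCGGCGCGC
Ptbp1 (lower in variation B, chr10:79859371-79859490, plus strand, exon 5 of 14): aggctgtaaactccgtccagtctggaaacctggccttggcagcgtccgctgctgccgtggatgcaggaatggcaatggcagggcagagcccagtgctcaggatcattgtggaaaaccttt
Srsf4 (higher in variation B, chr4:131891224-131891343, plus strand, exon 2 of 6): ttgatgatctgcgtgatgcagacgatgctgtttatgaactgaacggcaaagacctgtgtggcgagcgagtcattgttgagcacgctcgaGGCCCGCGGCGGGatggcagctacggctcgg
Hnrnpab (higher in variation B, chr11:51604694-51604813, minus strand, exon 4 of 8): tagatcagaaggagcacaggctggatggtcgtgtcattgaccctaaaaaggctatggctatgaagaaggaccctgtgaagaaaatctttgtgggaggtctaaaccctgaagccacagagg
Hnrnph3 (higher in variation B, chr10:63018773-63018892, minus strand, exon 3 of 10): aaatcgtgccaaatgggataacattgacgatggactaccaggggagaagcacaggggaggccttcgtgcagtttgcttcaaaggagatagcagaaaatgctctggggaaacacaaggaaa

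G and C made up 71.8% of the whole coding sequence of Hnrnpa0, 68.2% of Srsf2, 59.5% of Pcbp1 and 57.1% of Ptbp1. They made up 57.9% of Srsf4, 53.6% of Hnrnpab and 48.2% of Hnrnph3. The median was 50.6% over the 35 members that passed the filter and 52.7% over 9520 protein-coding genes tested. For Hnrnpab the stretch has 48.3% G and C, the nearest that a single exon gives.

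The first question was which members are most abundant in the membrane preparations. Because long genes collect more reads, levels were compared per kilobase of annotated exon. The highest mean over the 5 libraries was that of Hnrnpl at 48.96 scaled CPM per kilobase, followed by Hnrnpa0 at 48.4, Hnrnpab at 47.2, Pcbp1 at 41.4, Hnrnpa2b1 at 36.1 and Hnrnpu at 22.5. The ranges of neighbours in this order over the 5 libraries overlapped, and the order itself depended on the variation. Hnrnpa0 led in variation A at 68.5 scaled CPM per kilobase, ahead of Hnrnpl at 58.9 and Pcbp1 at 52.4. Hnrnpab led in variation B at 74.9, ahead of Hnrnpl at 34.1 and Hnrnpa2b1 at 32.4. Among the SR genes Srsf2 had the highest mean level per kilobase over the 5 libraries, 19.2, followed by Srsf1 at 14.5 and Srsf6 at 13.3. Srsf2 led through variation A (25.7), and in variation B it was at 9.40, behind Srsf1 (17.3), Srsf5 (16.3) and Srsf6 (14.9). At the low end among the members tested was Hnrnpr at 0.888, whose annotated exons total 22199 bases. Annotated exon length includes non-coding forms, so levels per kilobase are lowered in genes with many retained introns.

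The rank order of the members was most alike between A2 and A3 and between B1 and B2. Over the 35 members, Spearman's correlation of scaled CPM was 0.97 between A2 and A3 and 0.95 between B1 and B2. A1 correlated at 0.79 with A2 and 0.78 with A3, below its 0.85 with B1 and 0.81 with B2. A2 and A3 correlated with the variation B libraries at between 0.63 and 0.76. These values describe one set of genes whose libraries also differ in depth and composition.

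**Figure D1:**
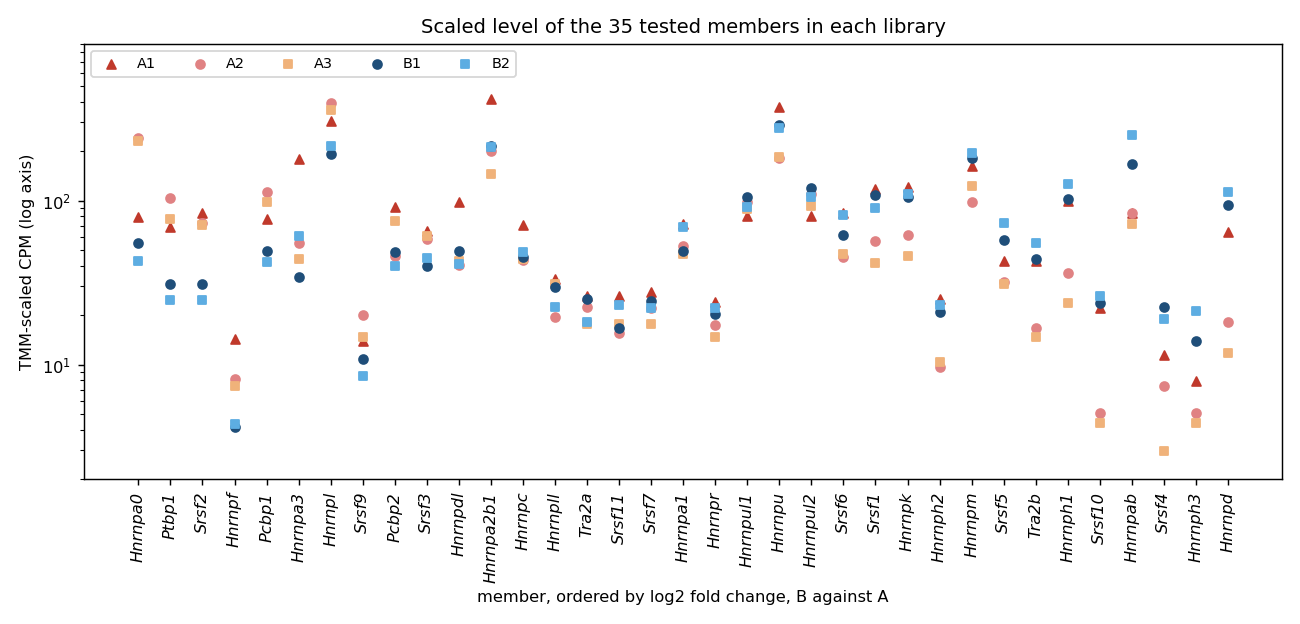
TMM-scaled CPM (log axis) of the 35 members that passed the filter, one column per gene ordered by log2 fold change, with 1 point per library: A1 as red triangles, A2 and A3 in pale red and orange, B1 and B2 in blue. The blue points lie under all variation A points for 8 members, toward the left, and above all of them for 9, toward the right.

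The main comparison asked which mRNAs were relatively more or less frequent in variation B than in variation A. Differences were tested on the counts of all 10287 genes that passed the filter with edgeR's quasi-likelihood test, and a call needed more than a 2-fold difference and a p, adjusted by Benjamini-Hochberg, below 0.05. Of the 35 members, 3 rose in variation B (Hnrnpab, Hnrnph3 and Srsf4) and 4 fell (Hnrnpa0, Ptbp1, Srsf2 and Pcbp1), which is 8.57% and 11.4%. Over all genes tested 11.0% were called higher and 12.4% lower, so the members' shares lie near those of all genes. Their median log2 fold change was 0.02, against 0.05 over all genes tested, with a range from -1.90 to 1.65. In 24 of the 35 the fold change was under 2. Both variation B libraries lay above all variation A libraries for 9 members (25.7%, against 31.2% of all genes tested) and below them for 8 (22.9%, against 26.7%). The SR genes had 1 call in each direction among 10 tested, the hnRNP genes 2 higher and 1 lower among 20, and the Tra2 genes none of 2. The poly(C) and polypyrimidine tract binding genes had 2 lower of 3. Directions are relative to TMM scaling, since library totals alone moved the median of all genes tested to 1.50 and that of the members to 1.44, and turned the sign of 12 of the 35 members from negative to positive, Pcbp1 among them. The log2 fold changes of Srsf2, Ptbp1 and Hnrnpa0 were then -0.0072, -0.084 and -0.31, and none was called. In such bulk preparations, less RNA per particle and fewer particles that carry it cannot be told apart.

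These counts changed when single libraries were left out and when a trend on base composition was removed. Without A1, 11 members were called higher (20.8% of all genes tested were) and the same 4 lower (15.0% of all genes). Without A2, the edgeR test called 0 members higher and only Srsf2 lower (3.46% and 3.64% of all genes), and without A3, 0 higher and only Ptbp1 and Srsf2 lower (3.57% and 3.86%). Without B1 it called 0 members in either direction (1.92% and 2.30% of all genes), and likewise without B2 (1.55% and 1.32%), where the lone library of variation B is assumed to vary like variation A. At an unadjusted p under 0.05, 11, 10, 7 and 5 of the 35 members passed in these 4 fits in turn, where 24.7%, 27.4%, 25.8% and 22.7% of all genes did. DESeq2 on all 5 libraries called 4 members higher and 5 lower (11.7% and 15.0% of all genes). With a trend of each library on transcript GC content removed, an alternative chosen after seeing the data, 2 members were called higher (10.4% of all genes) and 7 lower (11.3% of all genes), and the members' median log2 fold change was -0.53 against -0.04 over all genes tested.

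**Figure D2:**
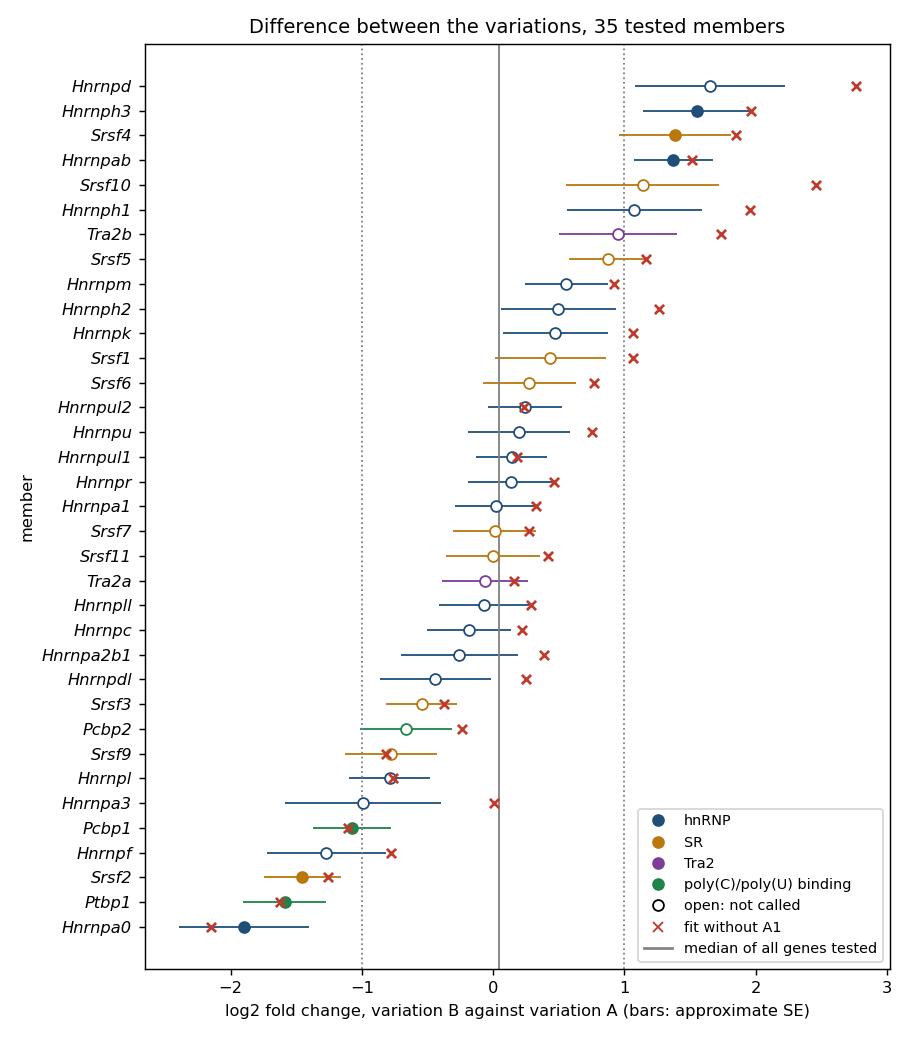
Log2 fold change of variation B against variation A for the 35 members (circles, bars of 1 approximate standard error, filled where called, coloured by family), with the fit without A1 as red crosses. Circles spread on both sides of the median of all genes tested (grey line at 0.05), dotted lines mark a fold change of 2, and the crosses lie to the right of the circles for most members near or above the median.

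Among the members that fell, Srsf2 encodes an SR protein that stays in the nucleus and marks nuclear speckles (ENSMUSG00000034120.18, chromosome 11 from 116849901 to 116853094, minus strand). Its scaled CPM was 84.0 (A1), 72.9 (A2) and 70.8 (A3) in variation A, while variation B had 31.0 (B1) and 24.6 (B2). The variation A libraries lay close together and well above both variation B libraries. For Srsf2 the log2 fold change was -1.45 (approximate standard error, SE, of 0.29, with adjusted p = 0.0118 in the edgeR test), or 2.74-fold lower, and -1.54 with the GC trend removed. Both variation B values equal those of Ptbp1 below to 3 digits, from 1275 and 1043 counts. Its exons share 25.3% of their bases with Mettl23 and Mfsd11 on the other strand. The counting ignored strand, so reads on those bases were not assigned to a gene, which can lower its level.

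Ptbp1 (chromosome 10 from 79854427 to 79864771, plus strand) encodes the polypyrimidine tract binding protein, a repressor of exon inclusion. Its scaled CPM was 69.2 (A1), 104 (A2) and 76.7 (A3) in variation A, while variation B had 31.0 (B1) and 24.6 (B2), again without overlap. For Ptbp1 the log2 fold change was -1.59 (approximate SE 0.32 and adjusted p = 0.0120 in the same edgeR test), or 3.01-fold lower, and -1.21 with the GC trend removed. Its exons share 20.7% of their bases with 3 genes on the other strand.

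Hnrnpa0 (chromosome 13 from 58125879 to 58128556, minus strand) encodes an A/B-type hnRNP that binds AU-rich elements, and it has a single exon. Its scaled CPM was 79.0 (A1), 239 (A2) and 232 (A3) in variation A, while variation B had 55.4 (B1) and 42.5 (B2). A1 was thus nearer to variation B than to the other variation A libraries. For Hnrnpa0 the log2 fold change was -1.90 (approximate SE 0.50 and adjusted p = 0.0282 in the same edgeR test), or 3.73-fold lower, and -2.15 without A1 and -1.26 with the GC trend removed.

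Pcbp1 (chromosome 6 from 86524492 to 86526321, minus strand), which also has a single exon, encodes a poly(C) binding protein of the KH-domain family. Its scaled CPM was 77.6 (A1), 113 (A2) and 97.4 (A3) in variation A, while variation B had 48.98 (B1) and 41.9 (B2). For Pcbp1 the log2 fold change was -1.08 (approximate SE 0.30 and adjusted p = 0.0340 in the same edgeR test), a 2.11-fold difference that lies just past the threshold. It was -0.25 with the GC trend removed, and no longer called. Its relative Pcbp2 had 90.9 (A1), 45.7 (A2) and 75.2 (A3), then 48.6 (B1) and 40.0 (B2), so the groups overlapped. The log2 fold change of Pcbp2 was -0.67, with adjusted p = 0.189 in the same edgeR test, and it was called at -1.42 with the GC trend removed. A part of 33.7% of its exon bases is shared with other genes, mostly Map3k12 on the other strand.

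Hnrnpab was the most abundant of the members that rose (ENSMUSG00000020358.17, chromosome 11 from 51600100 to 51606847, minus strand). It encodes an A/B-type hnRNP also known as a binding factor of CArG boxes. Its scaled CPM was 84.5 (A1), 83.7 (A2) and 72.3 (A3) in variation A, while variation B had 167 (B1) and 249 (B2). All variation A libraries, A1 among them, were close together and below both variation B libraries. For Hnrnpab the log2 fold change was 1.37 (approximate SE 0.30 and adjusted p = 0.0160 in the same edgeR test), or 2.59-fold higher, and 1.29 with the GC trend removed. Its exons share 29.1% of their bases with Phykpl on the other strand.

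Hnrnpd and Hnrnpdl are the closest relatives of Hnrnpab in the list, and Hnrnpd encodes AUF1, which binds AU-rich elements and can speed mRNA decay. The scaled CPM of Hnrnpd was 64.2 (A1), 18.2 (A2) and 11.8 (A3) in variation A, while variation B had 93.2 (B1) and 113 (B2). Both variation B libraries lay above all variation A libraries, but A1 was several times higher than A2 and A3. The log2 fold change of 1.65 was the highest of the members (approximate SE 0.57) but missed the threshold (adjusted p = 0.0676 in the same edgeR test). Without A1 it was 2.76 with an adjusted p of 4.74e-06 and without A2 or A3 it was 1.39 or 1.38, not called. With the GC trend removed it was 0.94 (adjusted p = 0.0680 by edgeR). DESeq2 called Hnrnpd higher (1.69, adjusted p = 0.0455), as did edgeR with no filter on low counts (1.84, adjusted p = 0.0405). Hnrnpdl showed no such separation, with 98.3 (A1), 40.3 (A2) and 42.8 (A3) in variation A, while variation B had 49.4 (B1) and 40.8 (B2).

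Hnrnph3 (chromosome 10 from 63014664 to 63024217, minus strand) belongs to the F/H group of hnRNPs, which bind runs of G. Its counts were low in variation A, at 16 (A1), 13 (A2) and 3 (A3), and were 576 (B1) and 902 (B2) in variation B. In scaled CPM these were 7.90, 5.04 and 4.43, against 14.0 and 21.3. For Hnrnph3 the log2 fold change was 1.55 (approximate SE 0.41 and adjusted p = 0.0290 in the same edgeR test), or 2.93-fold higher. With the GC trend removed it was 0.95 and not called.

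None of the other F/H genes was called. Hnrnph1 had a scaled CPM of 98.8 (A1), 36.0 (A2) and 23.6 (A3) in variation A, while variation B had 103 (B1) and 126 (B2), a log2 fold change of 1.08 that did not pass (adjusted p = 0.153 from the same edgeR test). A1 was close to B1 and well above A2 and A3. The value for Hnrnph1 was 1.95 without A1, when it was called, and 0.04 with the GC trend removed. Hnrnph2, on the X chromosome, had 25.2, 9.69 and 10.3, against 20.8 and 23.1, so that A1 lay above both variation B libraries. Hnrnpf had the opposite sign, with 14.3 (A1), 8.14 (A2) and 7.38 (A3) in variation A, while variation B had 4.13 (B1) and 4.34 (B2). A share of 26.5% of the exon bases of Hnrnpf lies on genes of the other strand. The groups of Hnrnpf did not overlap, and its log2 fold change of -1.27 had an adjusted p of 0.0719 from the same edgeR test. It was called lower by DESeq2 (-1.28, adjusted p = 0.0457) and with the GC trend removed (-1.44, adjusted p = 0.0301 by edgeR), and was -0.78 without A1.

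Srsf4 (chromosome 4 from 131873617 to 131901706, plus strand) encodes one of the larger SR proteins, with a long domain of arginine and serine. Its counts were 23 (A1), 19 (A2) and 2 (A3), then 919 (B1) and 808 (B2). In scaled CPM these were 11.4, 7.36 and 2.95, against 22.3 and 19.0. The log2 fold change was 1.38 (approximate SE 0.43 and adjusted p = 0.0473 in the same edgeR test), or 2.61-fold higher, close to the threshold, and 1.63 with the GC trend removed. A share of 43.0% of its exon bases lies on Gm12992, a transcript of the other strand, the largest such share of any member, and its 2 counts in A3 are under the 3 that set the floor.

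The relatives of Srsf4 did not pass. Srsf5, which encodes an SR protein of similar make-up, had a scaled CPM of 43.0 (A1), 31.8 (A2) and 31.0 (A3) in variation A, while variation B had 57.6 (B1) and 72.8 (B2). Its groups did not overlap, and its log2 fold change of 0.88 had an adjusted p of 0.0622 from the same edgeR test. For Srsf5 it was 1.16 without A1, when it was called (adjusted p = 0.00107 by edgeR), and -0.12 with the GC trend removed. Srsf6 had 84.5, 44.95 and 47.2, against 61.7 and 81.9, with A1 above both variation B libraries.

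The most abundant members per kilobase that were not called included Hnrnpl, a binder of CA repeats with a known part in splicing of the leukocyte phosphatase CD45. Its scaled CPM was 304 (A1), 391 (A2) and 356 (A3) in variation A, while variation B had 191 (B1) and 215 (B2). The groups did not overlap, but the log2 fold change of -0.79 was under the fold required (adjusted p = 0.0933 from the same edgeR test). Hnrnpa2b1, which encodes proteins that bind RNA sorting signals, had 414 (A1), 201 (A2) and 146 (A3) in variation A, while variation B had 215 (B1) and 211 (B2). Hnrnpu, a large nuclear matrix protein, had 373 (A1), 181 (A2) and 184 (A3) in variation A, while variation B had 290.1 (B1) and 276 (B2). In both genes A1 was the highest library, and the other variation A libraries lay below both variation B libraries.

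The same position of A1 was seen over much of the family. A1 was above both A2 and A3 in 28 of the 35 members, or 80%, against 42.9% of all genes tested, and below both in the other 7. The median ratio of A1 to the mean of A2 and A3 was 1.50 over the members and 1.01 over all genes tested. It was highest for Srsf10 at 4.70, Hnrnpd at 4.28, Hnrnpa3 at 3.60 and Hnrnph1 at 3.31, and lowest for Hnrnpa0 at 0.336. The members called higher in the fit without A1 and not with it were Hnrnpd, Hnrnph1, Hnrnph2, Hnrnpk, Srsf1, Srsf5, Srsf10 and Tra2b. For Srsf10, an SR protein that represses splicing when dephosphorylated, the log2 fold change was 1.14 with A1 and 2.46 without it, on 13 counts in A2 and 3 in A3. For Tra2b, an activator that binds GAA-rich enhancers, it was 0.95 and 1.73. The log2 fold change of Tra2a was -0.06 with A1 and 0.16 without it. Several members lay close to the median of all genes in the fit of all libraries, such as Hnrnpa1 at 0.02, Srsf7 at 0.01 and Hnrnpll at -0.07.

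The counts were then set against the base composition shown above. Across the 35 members, Spearman's correlation of the log2 fold change with the GC content of the coding sequence was -0.36, and across 9520 protein-coding genes tested it was -0.52. These points share the libraries, and no p is given. Among the 14 members under 50% G and C, 0 were called lower by edgeR and 1 higher (7.14%), where 2.17% of the 3358 protein-coding genes under 50% were called lower and 17.7% higher. Both members over 60%, Hnrnpa0 and Srsf2, were called lower. Over all protein-coding genes tested, 29.7% of the 1062 genes at 60% or more were called lower and 2.35% higher, whereas 1.48% of the 1217 genes under 45% were called lower and 20.3% higher. Srsf4, at 57.9%, was called higher where 4.38% of protein-coding genes between 55% and 60% were called higher and 21.4% lower. Of the 7 members in that range, 1 was called higher (Srsf4) and 2 lower (Ptbp1 and Pcbp1, or 28.6%). Hnrnpab, at 53.6%, lies in the range of 50% to 55%, where 9.53% were called higher and 8.65% lower. With the GC content of the whole transcript, the correlation was -0.31 across members and -0.53 across protein-coding genes, and with that of the 3′ UTR it was -0.09 and -0.43. With exon length it was 0.26 and 0.18.

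**Figure D3:**
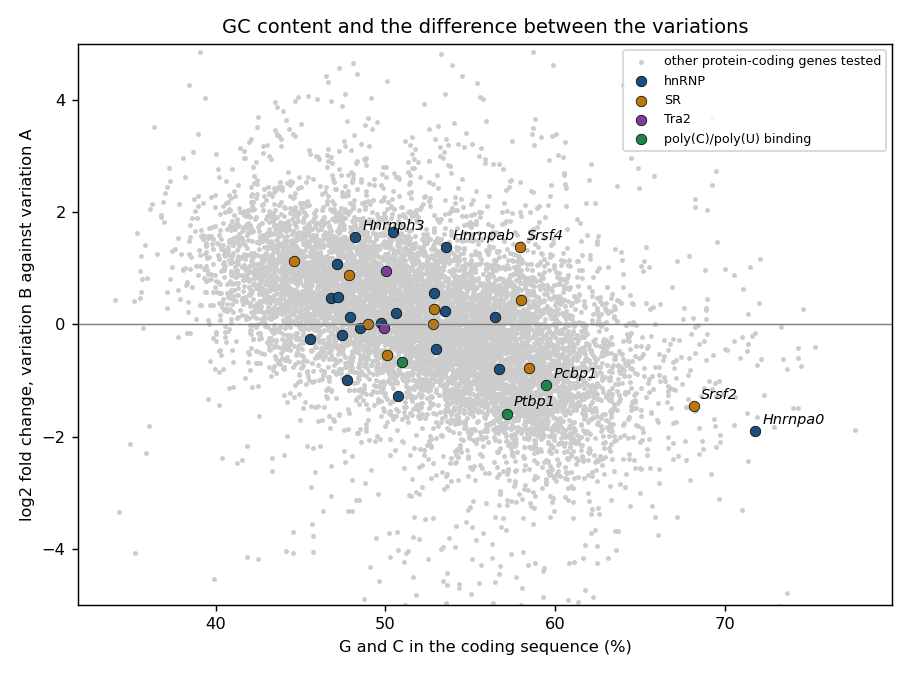
Share of G and C in the coding sequence (%) against the log2 fold change of variation B over variation A, with protein-coding genes tested in grey and the 35 members coloured by family and labelled where called. The grey cloud falls from left to right, Hnrnpa0 and Srsf2 lie at its GC-rich end below 0, and Srsf4 and Hnrnpab lie above 0, where 145 genes beyond 5 or -5 on the log2 axis are not drawn.

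The ratio of A1 to A2 and A3, within variation A, also followed GC content. Spearman's correlation was -0.59 across the 35 members and -0.66 across protein-coding genes tested. The part of base composition in the results above was not tested beyond the fit with the GC trend removed.

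**Figure D4:**
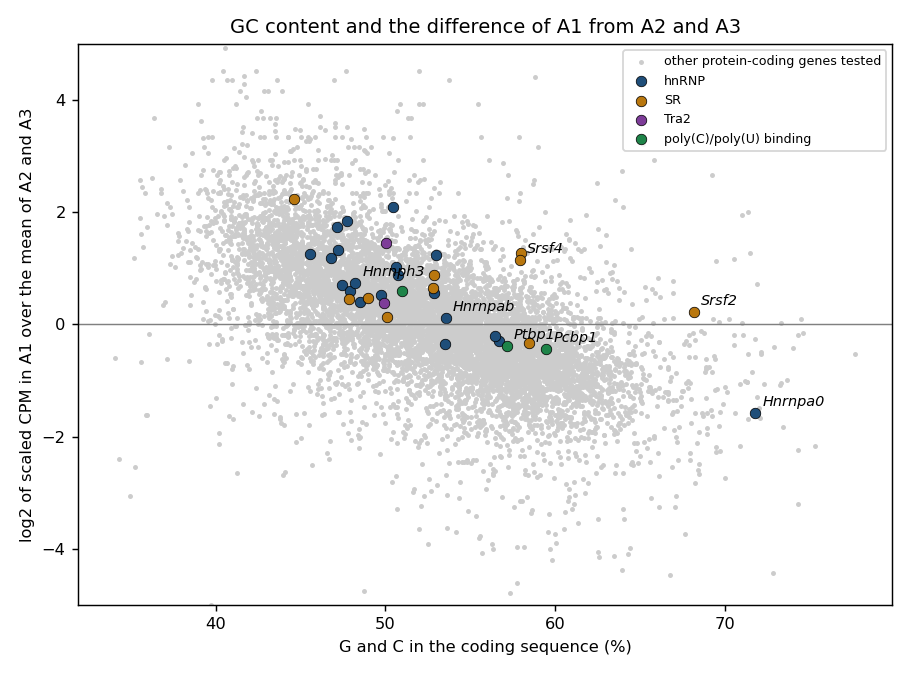
Share of G and C in the coding sequence (%) against the log2 ratio of scaled CPM in A1 to the mean of A2 and A3, with protein-coding genes tested in grey and the members coloured by family. Most members lie above 0, where A1 is higher, and Hnrnpa0 is the lowest, and 10 genes beyond 5 or -5 and 132 with no ratio are not drawn.

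As a share of all protein-coding counts, the members took 0.713% of library A1 (95% Wilson bounds 0.696 and 0.731), 0.610% of A2 (0.595 and 0.626) and 0.574% of A3 (0.546 and 0.604). Their share was 0.735% of B1 (0.730 and 0.739) and 0.754% of B2 (0.749 and 0.758). Both variation B libraries were above all variation A libraries, A1 by the smallest margin. The means were 0.632% ± 0.0721 (SD, n = 3) and 0.744% ± 0.0135 (SD, n = 2). Counted over the 19 members that share no exon base with another gene, the means were 0.258% ± 0.0336 (SD, n = 3) and 0.291% ± 0.00330 (SD, n = 2), and A1 at 0.296% was above both variation B libraries. These bounds cover counting error only, since no molecular identifiers are named for these reads and several can stem from 1 molecule.

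Other genes of the splicing machinery were read from 3 lists drawn up from general knowledge. Among 46 core spliceosome genes tested, 6 were higher (13.0%) and 5 lower (10.9%), near the 11.0% and 12.4% of all genes tested, with a median log2 fold change of 0.42 against 0.05 over all genes tested. Levels are again scaled CPM. The higher ones included Lsm3, a ring protein of the spliceosome, at 9.88 (A1), 5.43 (A2) and 4.43 (A3), then 122 (B1) and 154 (B2). Snrpb, which encodes the SmB and SmB′ core proteins, had 58.8, 42.2 and 41.3 against 407 and 597. Their log2 fold changes of 4.32 and 3.39 (adjusted p = 0.000577 and 0.000949 from the same edgeR test) were beyond that of every member. G and C make up 46.6% of the coding sequence of Lsm3 and 60.1% of that of Snrpb. Of protein-coding genes tested at 60% or more, 2.35% were called higher and 29.7% lower. Ddx46 and Snrpe were also higher, at 1.37 and 1.96. Those lower included Snrpc at -1.98, Eftud2 at -1.10, Lsm7 at -2.45 and Snrpd2 at -1.38.

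Among 24 kinases, carriers and partners of SR proteins, 6 were higher (25%, against 11.0% of all genes tested) and 1 lower (4.17%, against 12.4%), with a median of 0.47. The coding sequences of the 6 higher genes have 42.1% to 48.2% G and C. Other genes of the list in that range, such as Clk4 and Tnpo1, were not called. Of all protein-coding genes tested under 50%, 17.7% were called higher. That share is not like for like with the 25%, which covers the whole list, including genes above 50% such as Alyref at 60.3%. The part of base composition in the count of higher genes was not tested. Luc7l3, an SR-related protein, had 40.0 (A1), 24.4 (A2) and 19.2 (A3), then 320 (B1) and 573 (B2), a log2 fold change of 3.97. Clk1, a kinase that phosphorylates SR proteins, had 22.2, 5.81 and 8.85 against 64.7 and 74.0, a change of 2.46. Rbm25 and Scaf11 were higher at 1.39 and 1.50. The one lower gene was Rnps1 at -2.26, with 11.4 (A1), 35.3 (A2) and 42.8 (A3), then 5.18 (B1) and 6.84 (B2). Among 38 other RNA-binding regulators tested, 4 were higher (Pspc1 at 2.35, Qk at 1.81, Taf15 at 1.10, with Mbnl2 between Qk and Taf15) and 4 lower (among them Khsrp at -2.34, Khdrbs1 at -1.41 and Ilf2 at -1.21), or 10.5% in each direction, with a median of 0.08. Khsrp resembled Hnrnpa0 in its levels, at 95.8 (A1), 260.0 (A2) and 263 (A3), then 44.6 (B1) and 36.6 (B2), and has 61.6% G and C in its coding sequence. These lists describe the surroundings of the members and were not compared with other genes by a test.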

How the data were processed

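The 5 libraries were grouped by the letter and number in their labels. Per the labels and file headers, the authors used Trimmomatic 0.36 for trimming, STAR 2.7.3a for alignment (GRCm38) and featureCounts 1.6.4 for counts over GENCODE M24 exons. The deposited values are raw counts per gene, with no normalization. Per the file headers no strand, multi-mapping or multi-overlap option was set, so reads with several alignments were left out, which can lower genes with near copies such as Hnrnpa1 and Hnrnpa3. Reads on exons shared between genes were likewise not assigned to a gene, while levels per kilobase used the full exon length. Symbols came from GENCODE M21 for 55144 of 55385 genes.

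Variation B was compared with A in R 4.3.3 by the quasi-likelihood test of edgeR 4.0.16, after filterByExpr and TMM scaling, with p-values adjusted by Benjamini-Hochberg over every gene tested, with Python 3.11.15 for the rest. Standard errors were derived from the test statistic. On simulated counts for 10287 genes, 200 of those above a mean log2 CPM of 3 were changed 4-fold. There edgeR called 79.0% of them and 3.07% of the genes it called were false. The simulated libraries held no outlying A1 and no GC trend, and every member changed less than 4-fold. These rates therefore do not give the recovery or the false calls among the members. DESeq2 1.42.0, the study's tool, was an alternative. GC content was taken from the transcript with the longest coding sequence, and in the trend fit from the longest transcript. No 2 libraries agreed within sampling noise. The members and lists were chosen with earlier results of these data known. Values per library are given for the 6 members highest per kilobase, called members, their relatives, and members that variation A libraries hardly held (no more than 3 counts in any). Further members and the list genes were named after their values were seen, except the list genes called, up to 4 a direction by adjusted p. Protein sequences were not used here. The values of 1 gene of these lists are not reported here.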

Additional observations from a re-analysis of the deposited data

How the results depend on the processing

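Signs are given for the 18 tested members named by the rule. Those of Hnrnpa0, Ptbp1, Srsf2 and Hnrnpab did not turn in 19 alternatives, nor those of Hnrnph3, Srsf4 and Hnrnpd in 18, since these had under 10 counts in some library. An unturned sign is not a stable size, since library totals alone put Srsf2 at -0.0072, Ptbp1 at -0.084 and Hnrnpa0 at -0.31, none of them called. Of 19, Srsf2 kept its call in 14, Ptbp1 in 13, Hnrnpab in 12, Hnrnpa0 in 9 and Pcbp1 in 5, and of 18, Srsf4 in 9 and Hnrnph3 in 8. Scaling by library totals alone moved the median of all genes tested to 1.50 and that of the members to 1.44, and edgeR then called 21 members higher and 0 lower (24 at an unadjusted p under 0.05) and 5654 and 302 of all genes. The share of higher calls was 94.9% there and 47.1% with TMM, and signs turned for 12 of the 35 members, including Hnrnpdl (0.91), Hnrnpa2b1 (1.08), Pcbp1 (0.43), Hnrnpf (0.13), Hnrnpl (0.71) and Pcbp2 (0.74). Leaving out each library in turn gave 0 to 11 members higher, 0 to 4 lower, and 161 to 2526 and 137 to 1821 of all genes, and without A1 signs turned for 6 of the 35, including Hnrnpdl (from a low of -0.63 over these fits to 0.25) and Hnrnpa2b1 (from -0.47 to 0.39).

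With at least 10 counts in every library, which leaves 4599 genes, 592 and 722 genes were called. After random thinning of each library to the total of A3, 0 members were called in either direction by edgeR (7 at an unadjusted p under 0.05) and 120 and 130 of all genes, and 10 of the 35 members turned, including Hnrnpu (-0.13) and Hnrnph2 (-0.31). The edgeR test against a fold change of 2 called 0 members in either direction (5 at an unadjusted p under 0.05) and 289 and 388 of all genes.

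Whether the replicate numbers pair the libraries could not be decided. Correlations of deviations from the group means were -0.10 (A1 with B1) and -0.03 (A2 with B2). With 2 libraries in variation B their deviations mirror each other, so the correlations with the other variation B library only have the opposite sign. The replicate block called 1 member higher (Hnrnpd, not called without it) and 2 lower (Ptbp1 and Srsf2), so that Hnrnpab, Hnrnph3 and Srsf4 were not called (adjusted p = 0.101, 0.0925 and 0.158 by edgeR), and 761 and 813 of all genes. The replicate block with a length trend removed called 1 member higher (Hnrnpab, adjusted p = 0.0484 by edgeR) and 2 lower, and 633 and 857 of all genes, and 5 of the 35 turned, including Hnrnpu (-0.28), as did 4 with the length trend removed alone, including Hnrnpu (-0.24). Of the alternatives chosen after seeing the data, removing the GC trend gave 7 members lower and a median of -0.53, and 10 of the 35 turned, including Hnrnpu (-0.71), Srsf6 (-0.46), Srsf5 (-0.12) and Hnrnph2 (-0.31). With the replicate block as well the median was -0.52, and 11 of the 35 turned, including Hnrnpu (-0.65), Srsf6 (-0.44), Hnrnph1 (-0.051), Srsf5 (-0.0071) and Hnrnph2 (-0.29). The difference in the members' share of counts, 0.112 percentage points of protein-coding counts, was 0.295 of all counts and 0.0326 over members with no shared exon. Apart from the fewer genes, counts or libraries, the cause was not tested. Depth limits the members with few counts in variation A, since 6 of the 35 had under 10 counts in some library.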
